A study of Homo sapiens with 4 samples.

Results

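The genes described here are 49 cell cycle genes that p53 lowers indirectly, through the cyclin-dependent kinase inhibitor p21 and the DREAM complex, out of 20037 protein-coding genes in the RefSeq annotation of GRCh38.p14. They were listed by name for this role, with earlier results of these data known, and all 49 matched the annotation. p53 occupancy had been mapped by chromatin immunoprecipitation and sequencing (ChIP-seq) in HCT116, a human colon cancer cell line. One genotype was labelled p53-R273H, in which a DNA-contacting arginine of p53 is replaced by histidine, and the other was the wildtype control, labelled ctrl-19-7. Both were cultured as spheroids, at passages 13 to 18, in DMEM/F12 with B27 and 20 ng/ml each of the growth factors EGF and bFGF. How the mutation was introduced, and whether either line is a clone, the labels leave unsaid. Each genotype had 1 library made with the p53 antibody DO-1, 1 input library and 1 deposited peak list, so no difference between genotypes has a replicate check. The R273H list held 2008 peaks and the wildtype list 2059, and read depth is unknown. Peak lists carry no expression values, so neither the levels of these genes nor the markers of the cell line could be checked.

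When p53 is active it binds DNA and induces CDKN1A, the gene of p21. p21 inhibits cyclin-dependent kinases, which leaves the pocket proteins p107 and p130 unphosphorylated, and these assemble with E2F4, DP1 and the MuvB core into DREAM. This complex sits on promoters of cell cycle genes at E2F sites or at the cell cycle genes homology region (CHR) and holds them silent. The genes below are held to be examples of repression by p53 without p53 on their own promoters. The comparison asks whether p53 peaks lay at these genes in either genotype.

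p53 peaks were almost absent from the cell cycle genes in both lists. Counting peaks inside a gene or up to 10 kb from it, 0 of 49 genes had an R273H peak, which is 0% with an exact (Clopper-Pearson) 95% binomial interval of 0 to 7.25%. In the wildtype list 1 of 49 had a peak, AURKA, which is 2.04% (0.0517 to 10.9). The shares over all protein-coding genes were 3.09% for R273H and 4.83% for wildtype. Among protein-coding genes of the same length, taken from 5 equal classes of gene length and weighted as the 49 genes fall into them, the shares were 2.60% and 4.47%, or 1.27 and 2.19 genes in 49. Both intervals hold these shares, so with 49 genes no shortfall against other genes was detectable. The intervals treat genes as independent, which neighbours that share a nearest peak are not.

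The same lists held peaks at several genes that p53 induces. All 6 of the p53 targets CDKN1A, PLK2, ZMAT3, BBC3, AEN and RPS27L carried peaks by the same rule in both lists, against 2.30% (R273H) and 3.88% (wildtype) of like-length genes. These 6 were picked with earlier results known, as a check that the lists hold p53 sites, and other p53-induced genes without a peak are named further on. At CDKN1A the peak over the lower-coordinate end of the gene scored 1427 (R273H, rank 16) and 3106 (wildtype, rank 1). Scores are the authors' own, were given separately for each list and are used only to rank peaks within a list.

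Since the repression is held to act through promoter elements for DREAM, the promoters of the best-studied genes are shown, each with the 250 bases before its RefSeq start site on GRCh38.p14, 5′ to 3′. No peak of either list touched any of the 40 promoter windows in the table that belong to the 49 genes (250 bases before to 50 after the start). Over all 15843 protein-coding genes with such a window, 0.101% were touched by R273H peaks and 0.227% by wildtype peaks. Capitals mark CHR elements (TTTGAA or TTCGAA), E2F sites (TTTCCCGC or TTTCGCGC or TTTGGCGC or TTTGCCGC) and CCAAT boxes (CCAAT), read on both strands. The windows are chr5:69166900-69167149, + strand for CCNB1, chr15:59104896-59105145, + strand for CCNB2, chr10:60778081-60778330, + strand for CDK1, chr5:138338356-138338605, - strand for CDC25C, chr16:23678639-23678888, + strand for PLK1, chr4:121823884-121824133, - strand for CCNA2 and chr20:33686386-33686635, - strand for E2F1.
CCNB1: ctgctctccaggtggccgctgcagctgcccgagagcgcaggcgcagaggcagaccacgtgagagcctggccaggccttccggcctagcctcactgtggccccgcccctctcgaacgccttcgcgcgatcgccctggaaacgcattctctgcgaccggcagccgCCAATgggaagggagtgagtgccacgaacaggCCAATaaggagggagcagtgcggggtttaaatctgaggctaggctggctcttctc
CCNB2: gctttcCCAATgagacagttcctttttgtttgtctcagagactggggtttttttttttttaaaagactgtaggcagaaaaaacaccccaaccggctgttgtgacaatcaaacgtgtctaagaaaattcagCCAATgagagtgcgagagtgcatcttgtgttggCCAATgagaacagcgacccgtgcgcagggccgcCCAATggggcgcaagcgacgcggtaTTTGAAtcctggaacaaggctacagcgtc
CDK1: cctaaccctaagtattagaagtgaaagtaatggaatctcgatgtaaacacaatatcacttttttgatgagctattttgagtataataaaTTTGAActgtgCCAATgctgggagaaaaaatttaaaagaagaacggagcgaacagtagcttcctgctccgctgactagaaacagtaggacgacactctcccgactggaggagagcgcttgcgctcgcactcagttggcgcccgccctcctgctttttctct
CDC25C: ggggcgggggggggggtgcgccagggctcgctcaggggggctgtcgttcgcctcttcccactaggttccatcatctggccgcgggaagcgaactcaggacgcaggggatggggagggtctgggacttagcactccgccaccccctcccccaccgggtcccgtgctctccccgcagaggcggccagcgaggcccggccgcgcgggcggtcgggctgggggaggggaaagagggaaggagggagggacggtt
PLK1: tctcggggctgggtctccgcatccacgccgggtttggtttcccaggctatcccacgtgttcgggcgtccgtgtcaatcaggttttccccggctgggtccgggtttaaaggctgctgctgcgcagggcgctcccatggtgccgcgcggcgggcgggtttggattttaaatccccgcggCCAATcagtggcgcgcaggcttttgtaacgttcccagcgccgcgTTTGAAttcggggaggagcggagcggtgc
CCNA2: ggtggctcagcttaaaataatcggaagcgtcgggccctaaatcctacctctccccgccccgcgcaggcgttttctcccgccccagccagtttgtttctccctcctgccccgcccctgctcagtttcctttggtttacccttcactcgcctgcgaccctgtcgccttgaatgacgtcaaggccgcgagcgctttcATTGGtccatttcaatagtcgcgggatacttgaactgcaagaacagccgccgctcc
E2F1: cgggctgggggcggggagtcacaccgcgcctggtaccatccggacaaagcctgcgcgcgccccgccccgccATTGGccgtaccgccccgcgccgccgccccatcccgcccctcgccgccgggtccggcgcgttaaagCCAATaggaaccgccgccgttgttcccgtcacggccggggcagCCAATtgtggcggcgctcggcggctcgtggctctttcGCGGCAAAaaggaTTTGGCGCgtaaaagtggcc

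In CCNB2 and PLK1, both mitotic genes, a CHR element began 29 bases before the start, with CCAAT boxes farther upstream. E2F1, which encodes a transcription factor of S phase entry, had no CHR element but E2F sites that began 33 and 20 bases before the start. CDK1, the mitotic kinase gene, had a CHR element 161 bases before the start and an E2F site 20 bases after it, outside the stretch shown. CCNB1 and CCNA2 had CCAAT boxes and no exact CHR or E2F match, and the CDC25C window at its outermost start had no match at all. Variant CHR letters were not searched, so a window without a match may still hold such an element.

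Across the 40 promoters, CHR elements were counted mostly in mitotic genes and E2F sites mostly in replication and transcription factor genes, with no test of the difference, and CCAAT boxes in both. A CHR element lay in 17 of 40 promoters (42.5%), against 13.6% of all 15843. An E2F site lay in 13 (32.5%, against 4.44%) and a CCAAT box, which binds the trimeric factor NF-Y, in 29 (72.5%, against 36.4%). By role, CHR elements lay in 14 of 22 promoters of the 3 mitotic groups together (mitotic entry, spindle checkpoint, and spindle with kinetochore and cytokinesis), and E2F sites in 3. Of the 7 replication licensing promoters, 6 had an E2F site (CDC6, CDT1, MCM2, MCM3, MCM6 and MCM7) and 1, MCM6, a CHR element. All 4 spindle checkpoint promoters in the table (BUB1, BUB1B, MAD2L1 and CDC20) had a CHR element and none an E2F site. These are counts of letters, not of bound sites, and base composition was not matched. The genes were listed for repression through DREAM, which sits at CHR and E2F sites. The higher shares are therefore a description and not independent evidence.

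**Figure D1:**
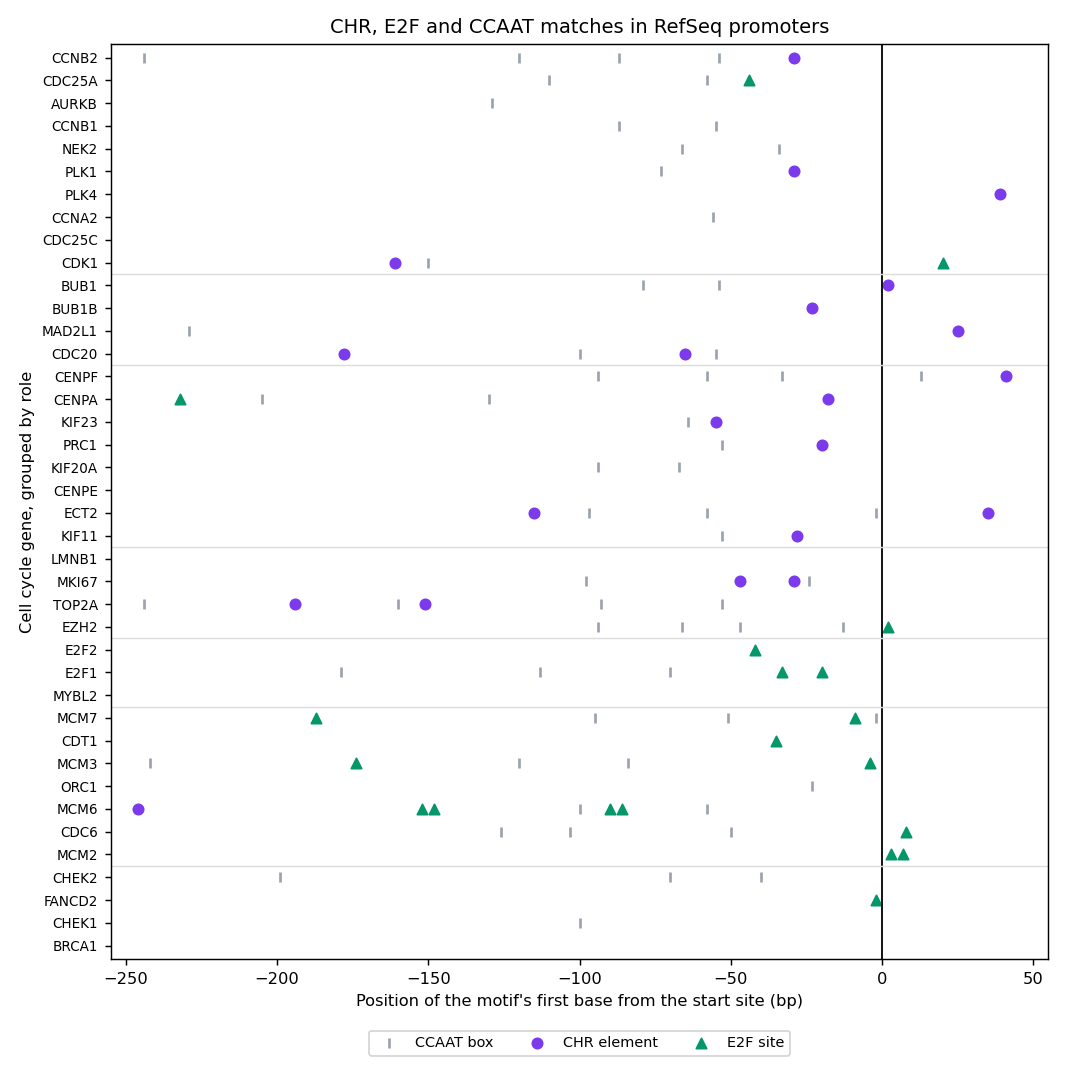
Position of each CHR, E2F and CCAAT match (first base, in bp from the start site, with no position 0) in the promoters of 40 cell cycle genes, with grey lines between role groups. CHR elements (circles) fall mostly in the upper, mitotic groups and E2F sites (triangles) mostly in the transcription factor and licensing groups; 15 of 21 CHR matches and 15 of 20 E2F matches begin within 100 bases of the start.

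Of 46 promoters of further mitotic genes, such as kinesins and condensin subunits, 35 had a CHR element (76.1%) and 3 an E2F site. Of 41 promoters of further S phase genes, 16 had an E2F site (39.0%) and 3 a CHR element. The p53 response element, taken as 2 decamers of the consensus 0 to 13 bases apart with at most 2 mismatches in all and the central C and G of each decamer kept, had a match in 1 of the 40 promoters (2.50%), that of the DNA crosslink repair gene FANCD2. The share over all 15843 promoters was 2.68%. The FANCD2 match ran from 237 to 206 bases before the start, and the nearest wildtype peak lay 295 kb from the gene.

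**Figure D2:**
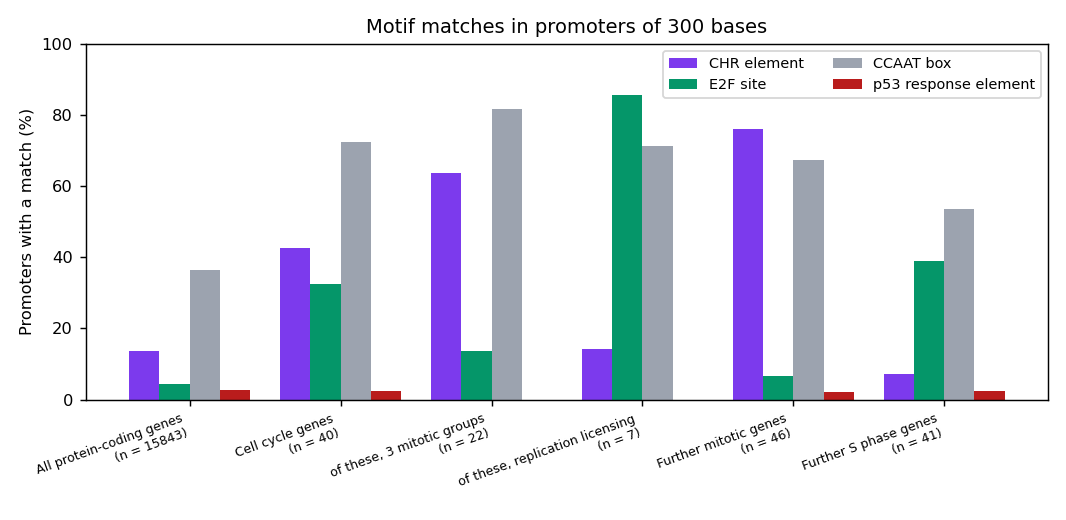
Share of promoters (%) with a CHR element, an E2F site, a CCAAT box or a p53 response element, by gene group, with the number of promoters under each group. CHR matches reach 63.6% in the 3 mitotic groups and E2F matches 85.7% in replication licensing, against 13.6% and 4.44% of all protein-coding genes, while p53 response elements stay at 2.50% in the cell cycle genes.

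Most of the genes lay over 100 kb from the nearest peak of each list, as most other protein-coding genes did. The median distance from a gene to the nearest R273H peak was 1.28 Mb (quartiles 0.536 to 2.46 Mb), beside 0.896 Mb (0.310 to 2.05) over all protein-coding genes. To the nearest wildtype peak it was 494 kb (198 to 1340 kb), beside 512 kb (178 to 1220). Weighted over the length classes of the 49 genes, the medians of other genes were 876 and 505 kb. More than 1 Mb separated 28 of the 49 genes from any R273H peak (57.1%, against 46.5% of all protein-coding genes) and 15 from any wildtype peak (30.6%, against 30.6%). No interval was computed for these distances, and their difference from other genes was not tested.

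**Figure D3:**
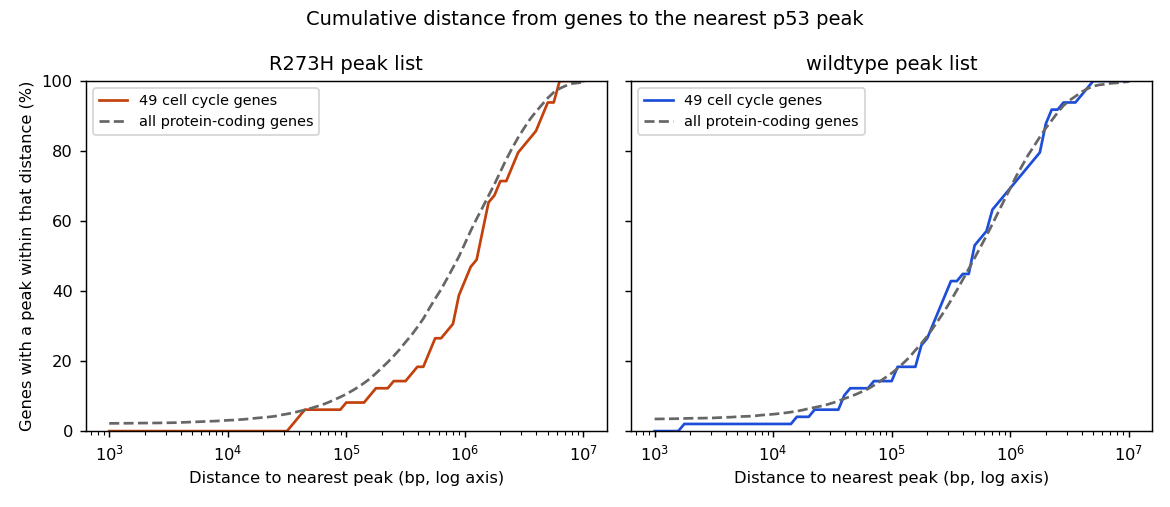
Share of genes (%) with a p53 peak within a given distance (bp, log axis), for the 49 cell cycle genes (solid) and all protein-coding genes (dashed), R273H on the left and wildtype on the right. The wildtype curves run close together, with medians of 494 and 512 kb, and the R273H curve of the cell cycle genes lies below that of all genes over most distances, with medians of 1.28 and 0.896 Mb.

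Within 100 kb, 4 genes had an R273H peak (8.16%, against 10.6% of all protein-coding genes and 10.2% of those of like length) and 7 a wildtype peak (14.3%, against 16.5% and 16.3%). The R273H genes were PLK4, TPX2, CCNB2 and BIRC5. In the wildtype list they were AURKA, MCM7, CDT1, MCM5, TPX2, CCNB2 and UBE2C. CCNB2 and TPX2 had such a peak in both lists, and in each case the peaks of both genotypes overlapped. Over the whole group, the nearest peaks of both lists overlapped at 12 of 49 genes (24.5%, against 20.4% of all protein-coding genes). At the other 37 genes the wildtype peak was the nearer for 27 (73.0%, against 68.0% of other genes), so a nearer wildtype peak was the rule across the genome.

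**Figure D4:**
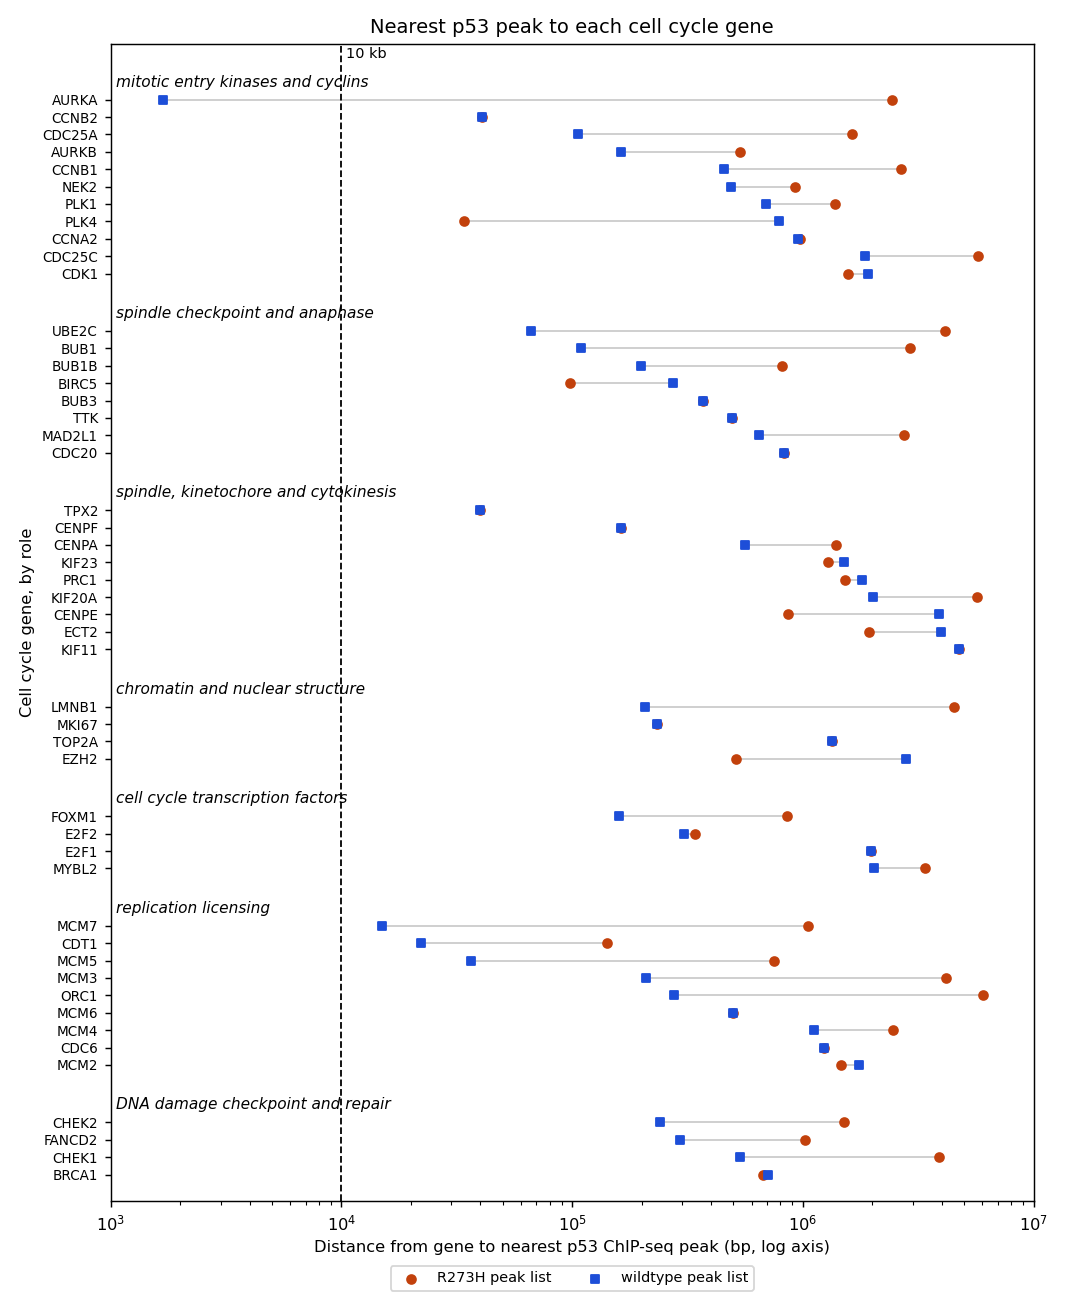
Distance (bp, log axis) from each of the 49 cell cycle genes to the nearest p53 peak of the R273H list (circles) and of the wildtype list (squares), in role groups and joined by a grey line. AURKA alone has a point left of the dashed 10 kb line, in the wildtype list, and at CCNB2, TPX2 and CENPF the symbols coincide at a site called in both genotypes. The near symbols at CCNA2 and BRCA1 are different sites.

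The mitotic entry genes encode the cyclin B and A proteins, their kinase CDK1, the CDC25 phosphatases that activate it, and the Polo, Aurora and NEK2 kinases. AURKA, which encodes the centrosomal Aurora kinase (chromosome 20, 56369390 to 56392215), had its wildtype peak at 56367352 to 56367713, 1677 bp below the gene in coordinate and inside the neighbouring gene FAM210B. It scored 53.1, rank 1726 of 2059 in a list whose lowest score was 50.01, and had no R273H partner. The nearest R273H peak to AURKA was 2.44 Mb away. AURKA had no promoter entry, so the distance of the wildtype peak from the AURKA start site was not measured.

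CCNB2 had peaks 40.7 kb (R273H) and 40.6 kb (wildtype) away, a shared site inside MYO1E, a myosin gene. PLK4, the centriole duplication kinase gene, had an R273H peak 34.0 kb away inside MFSD8 (score 63.4), and its nearest wildtype peak was 787 kb away. For CCNB1 the distances were 2.67 Mb (R273H) and 455 kb (wildtype). Of these 3 genes, CCNB2 had its nearest site in both genotypes, and PLK4 and CCNB1 had different nearest sites in each.

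At CDK1 both lists were distant, at 1.58 Mb (R273H) and 1.91 Mb (wildtype). CDC25C was the farthest of the group in the R273H list, at 5.77 Mb, with the nearest wildtype peak at 1.86 Mb, and CDC25A lay 1.64 Mb and 106 kb from its nearest peaks in the same order. PLK1, the main mitotic Polo kinase gene, lay 1.38 Mb and 692 kb away, CCNA2 974 and 953 kb, and NEK2 921 and 489 kb. The R273H peak nearest to NEK2 was in ATF3, a stress-induced transcription factor gene, and had a wildtype partner. AURKB, the gene of the chromosomal passenger kinase, lay 163 kb from its nearest wildtype peak, which scored 55.7 and had no R273H partner.

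The spindle checkpoint genes encode the kinases and adaptors that hold back anaphase until chromosomes are attached. With them stand CDC20 and UBE2C, whose products work with the ubiquitin ligase that the checkpoint restrains, and the survivin gene BIRC5. BIRC5 had an R273H peak 98.3 kb away inside TMC6, with a score of 238 and no wildtype partner, and its nearest wildtype peak was 275 kb away. UBE2C had a wildtype peak 66.4 kb away (score 65.0), and its nearest R273H peak was 4.13 Mb away. None of the 8 genes of this group had a peak within 10 kb, beside 3.09% (R273H) and 4.83% (wildtype) of all protein-coding genes.

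TTK lay 494 kb from a site called in both lists, scoring 489 (R273H) and 1700 (wildtype). CDC20 (825 kb R273H, 826 kb wildtype) and BUB3 (368 kb in both) were likewise nearest to a site called in both. For BUB1 the R273H and wildtype distances were 2.92 Mb and 109 kb, for BUB1B 811 and 198 kb, and for MAD2L1 2.73 Mb and 645 kb. The latter 3 all lay nearer to a wildtype peak, each scoring below 100.

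Genes of the spindle, kinetochore and cytokinesis encode mitotic kinesins, centromere proteins and the central spindle factors PRC1 and ECT2. TPX2, which activates Aurora A on the spindle, lay 39.7 kb in both lists from a shared site inside BCL2L1, an anti-apoptotic gene, with scores of 144 (R273H) and 109 (wildtype). CENPF lay 163 kb in both lists from a shared site inside PTPN14, a tyrosine phosphatase gene, with scores of 377 and 912. KIF11 was the farthest of the group in the wildtype list, 4.75 Mb from a shared site.

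The remaining distances in this group were at least 564 kb. CENPA lay 1.39 Mb from an R273H and 564 kb from a wildtype peak, CENPE 866 kb and 3.87 Mb, and ECT2 1.93 and 3.99 Mb. KIF23 (1.28 and 1.51 Mb), PRC1 (1.52 and 1.81 Mb) and KIF20A (5.66 and 2.01 Mb) followed in the same order of lists. KIF20A and CDC25C are neighbours on chromosome 5 and had the same nearest peak in each list.

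Among genes of chromatin and nuclear structure, MKI67, the proliferation antigen gene, lay 233 kb from one of the stronger shared sites, scoring 813 in R273H (rank 50) and 2422 in wildtype (rank 36). TOP2A, the topoisomerase gene, and CDC6 lay 1.34 and 1.24 Mb from a shared site that scored 1178 and, in the wildtype list, 3100. EZH2, which encodes the Polycomb methyltransferase, lay 515 kb from an R273H and 2.80 Mb from a wildtype peak, and LMNB1, the lamin B1 gene, 4.54 Mb and 208 kb. Even where the nearest site ranked high in both lists, as at MKI67, TOP2A and CDC6, it lay far outside the gene.

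The 4 cell cycle transcription factor genes had no peak within 100 kb in either list. Such a peak was found at 10.6% (R273H) and 16.5% (wildtype) of all protein-coding genes, and 4 genes are too few to compare with these shares. FOXM1, which drives mitotic genes, lay 853 kb from an R273H and 160 kb from a wildtype peak, both inside CACNA1C. MYBL2, whose product B-MYB replaces the DREAM subunits on MuvB when genes are activated, lay 3.40 and 2.03 Mb away. E2F1 lay 1.98 Mb in both lists from the BCL2L1 site that is also nearest to TPX2, and E2F2 340 and 306 kb away.

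Replication licensing genes encode the MCM helicase and its loaders, and 3 of 9 had a wildtype peak within 100 kb, and 0 of 9 an R273H peak, beside 16.5% and 10.6% of all protein-coding genes. MCM7 had a wildtype peak 14.9 kb away inside ZNF3 (score 61.3), just outside the 10 kb limit. CDT1 had one 22.1 kb away inside GALNS (61.3) and MCM5 one 36.6 kb away (179.9). None of these 3 peaks had an R273H partner, beside 21.2% of the whole wildtype list that had one. The R273H distances of the 3 genes were 1.06 Mb, 141 kb and 751 kb.

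MCM6 lay 499 kb in both lists from a shared site. The other members lay 1.47 and 1.76 Mb (MCM2), 4.15 Mb and 209 kb (MCM3), 2.46 and 1.12 Mb (MCM4) and 6.04 Mb and 277 kb (ORC1) from the nearest R273H and wildtype peak. ORC1, the largest origin recognition subunit gene, was the farthest of all 49 from an R273H peak.

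Of the DNA damage checkpoint and repair genes, CHEK2 lay 241 kb from a wildtype peak inside ZNRF3 and 1.50 Mb from an R273H peak inside the cytokine gene LIF. BRCA1 lay 706 kb from a wildtype peak inside STAT3 and 672 kb from an R273H peak. CHEK1 lay 3.88 Mb and 533 kb, and FANCD2 1.02 Mb and 295 kb, from the nearest R273H and wildtype peak. None of the 4 genes of this group had a peak within 100 kb, beside 10.6% (R273H) and 16.5% (wildtype) of all protein-coding genes.

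Against the whole list, the nearest R273H peaks had a higher median score (77.4 against 61.9). In the wildtype list the medians were alike (65.0 against 64.9). The 49 genes had 45 distinct nearest peaks in each list, since 4 peaks of each served more than 1 gene. Of the 45 R273H peaks, 17 had a wildtype partner (37.8%, against 21.9% of the whole list) and 16 scored at least 100 (35.6%, against 19.5%). In the wildtype list 12 had an R273H partner (26.7%, against 21.2%) and 17 scored at least 100 (37.8%, against 27.5%). Peaks near genes and peaks far from genes were not separated for this comparison. The peaks nearest to other genes were not scored in the same way, so a like shift may hold for any genes.

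Upstream of the cell cycle genes, peaks lay at the inhibitors that p53 induces. In each list 5 of 10 such genes were within 10 kb of a peak, and they were the same 5, CDKN1A, MIR34AHG, PLK2, GADD45A and PLK3. At the shares of like-length genes, the 9 protein-coding ones would give 0.188 genes (R273H) and 0.299 (wildtype). MIR34AHG, the host gene of miR-34a, which targets several cell cycle transcripts, had a peak over its upper-coordinate end (1160 in R273H, 3100 in wildtype). At GADD45A, which encodes a protein that inhibits CDK1 with cyclin B, the scores were 73.8 and 283, at the Polo-like kinase genes PLK2 746 and 2135, and PLK3 52.4 and 415. The highest-scoring peak of each of the 5 genes overlapped between genotypes, and a further wildtype peak inside CDKN1A (36677247 to 36677587, score 170.27) had no R273H partner. BTG2, CCNG1, E2F7, RPRM and SFN had no peak within 10 kb in either list. The list was put together with earlier results of these data known, so its count is a description and not independent evidence.

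**Figure D5:**
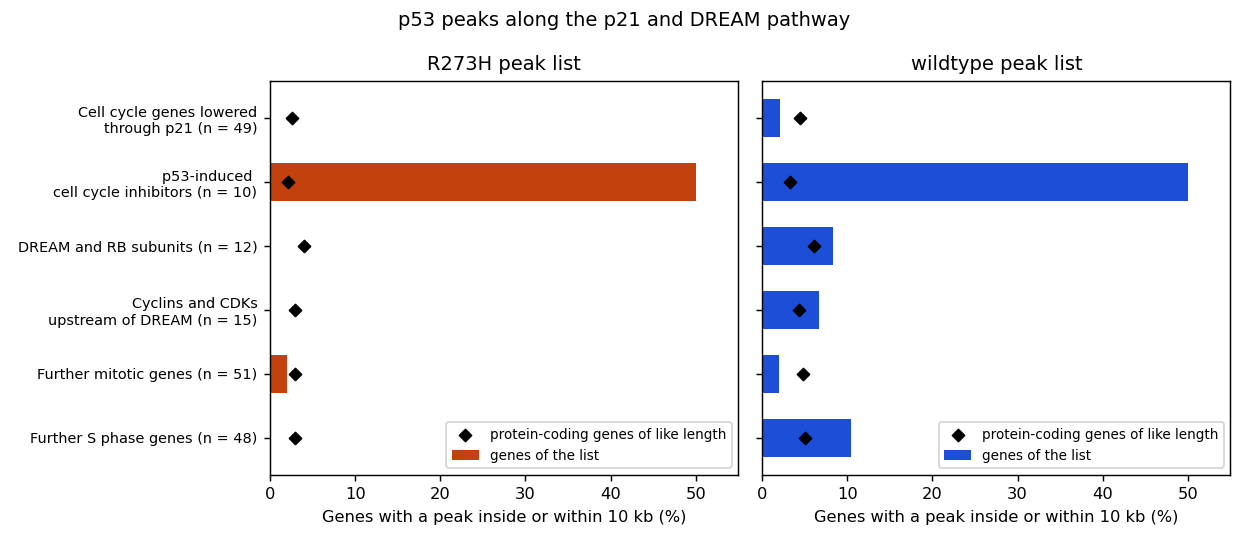
Share of genes (%) with a p53 peak no more than 10 kb away, for the 49 cell cycle genes and 5 lists of the pathway (bars, number of genes in brackets), and the share among protein-coding genes of like length (diamonds), R273H on the left and wildtype on the right. The p53-induced inhibitors reach 50.0% in both lists, while every other list stays at or below 10.4%.

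Of 12 genes of DREAM and RB subunits, 0 were marked in R273H and 1 in wildtype, by a peak inside RB1 (chromosome 13, 48427177 to 48427605, score 59.3). Of 15 cyclin, kinase and inhibitor genes that set DREAM assembly, likewise 0 and 1 were marked, the latter by a wildtype peak 1628 bp from CCND3, a D-type cyclin gene (score 68.1). Like-length genes would hold 0.485 and 0.734 genes for the former and 0.438 and 0.648 for the latter, for R273H and wildtype.

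Among 51 further mitotic genes, TRIP13, an ATPase gene of the spindle checkpoint, had an R273H peak (chromosome 5, 897288 to 899856, score 476) and NCAPD2, a condensin subunit gene, a wildtype peak (80.5). Like-length genes would hold 1.47 and 2.44. The TRIP13 peak was 2569 bp long, against a median of 375 in its list, and lay within 3 Mb of the chromosome end. Of 48 further S phase genes, 0 were marked in R273H and 5 in wildtype (10.4%, against 4.98% of like-length genes, or 2.39 genes). These were PCNA, the replication clamp and a known direct p53 target (chromosome 20, 5120005 to 5120304, score 277), the clamp loader genes RFC4 (72.2) and RFC3 (56.3), the replication initiation gene MCM10 (63.9) and the GINS subunit gene GINS4 (52.5). None of these peaks at mitotic or S phase genes had a partner in the other list. Most peaks had none, as 21.9% of the whole R273H list and 21.2% of the wildtype list had a partner. The difference between the genotypes has no replicate check.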

How the data were processed

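The members and gene lists were chosen with earlier results of these data known. The deposited files used were 2 lists of p53 peaks with the authors' score per peak, on a scale the sources used here do not give. The submitters' processing notes list hg38, Bowtie 1.2.2, MACS and HOMER but no role, threshold or use of the input. Each list was matched by name to a ChIP sample title, since the file names in the sample descriptions disagree with the titles, and pooling is not mentioned. Peak numbers began at 193 (R273H) and 228 (wildtype), and the 192 and 227 lower numbers were not analysed here.

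Distances ran from the RefSeq gene span (GRCh38.p14, the assembly of hg38) to the nearest peak edge, 0 where they overlapped. Like-length shares are those of all protein-coding genes in 5 length classes of equal size, weighted by the genes of a list. Promoters, from the RefSeq table of the same build, were taken at the outermost listed start, and 9 of the 49 genes had no entry. All 49 genes are named, with 1 nearest peak not reported here, with the pathway genes that had a peak; of the 8 promoters planned for printing, MCM5 had no entry. Genotypes were set side by side without a p-value, as each had 1 ChIP library, and intervals are exact binomial ones that cover counting error only. The alternatives were other distances, either gene end, higher-scoring peaks, no peaks near chromosome ends, 10 length classes, the start site, other overlap rules and other promoter windows. Counting was tested on simulated data. Python 3.11.15, pandas 2.3.3 and numpy 2.4.6 were used.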

Additional observations from a re-analysis of the deposited data

How the results depend on the processing

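The count of cell cycle genes with an R273H peak stayed at 0 inside genes, within 2 kb, within 10 kb of either gene end, with higher-scoring peaks (63.4, the pooled median, or more) and without peaks within 3 Mb of a chromosome end. It rose to 3 (6.12%) within 50 kb and 4 (8.16%) within 100 kb, beside about 6.5% and 10.6% of all protein-coding genes. The wildtype count of 1 fell to 0 inside genes and with the higher-scoring peaks. It rose to 6 (12.2%) within 50 kb and 7 (14.3%) within 100 kb, beside about 10.5% and 16.5% of all protein-coding genes. Over the 136 pathway genes, the R273H count of 6 rose to 18 within 100 kb. The wildtype count of 13 rose to 20 within 50 kb and 23 within 100 kb. The shares of all protein-coding genes were again about 10.6% (R273H, 100 kb), 10.5% (wildtype, 50 kb) and 16.5% (wildtype, 100 kb). The median distance to a wildtype peak rose from 494 to 1170 kb with the higher-scoring peaks, and the like-length shares within 100 kb were 10.2% (R273H) and 16.3% (wildtype). Wider windows take in more peaks and a score filter fewer by construction. The 3 overlap rules tried could give only 0 shared peaks at cell cycle genes, so they test nothing. The R273H list had 0 peaks within 10 kb, and the R273H peak nearest to AURKA was 2.44 Mb away. The 17 promoters with a CHR element became 13 with bases before the start only and 18 with any listed start, the last chosen after seeing the data. No paired analysis was possible because each genotype had 1 ChIP library, and leaving out a replicate was not possible for the same reason. Read depth is unknown, so a gene without a peak had none above the authors' threshold, which does not show that p53 was absent.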

Other observations

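Promoter windows that did carry a p53 peak held the p53 response element more often than the others. Over the 15843 protein-coding promoters, the element was matched in 4 of 16 windows with an R273H peak (25.0%) and in 7 of 36 with a wildtype peak (19.4%), against 2.65% and 2.64% of windows without one. Of the 11 windows with a peak in both lists, 4 held it (36.4%). The 40 windows of cell cycle genes all lacked a peak and are part of the windows without one. The element was matched in 1 of the 40 (2.50%), too few to compare with those windows. These shares are descriptions of small counts, with no test.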
